A study of Mus musculus with 12 samples.

Results

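The genes described here encode the machinery that carries the signal of active Rac to the actin cytoskeleton: the Arp2/3 complex, the WAVE regulatory complex, the PAK and cofilin branch, and the factors that elongate or scaffold filaments. They were taken by symbol from a list of 42 genes, each to be represented by its brightest transcript cluster, the array's unit for 1 gene. The rule itself uses no measured value, but the list was drawn up with earlier results of these data known. Of the 42 genes, 38 had a named cluster among the 19505 named genes and 22206 clusters tested, and each of the 38 had only 1 cluster. Actr2, Arpc3, Cyfip1 and Pak1 were not analysed here.

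Rac in its GTP-bound form opens the WAVE complex, which is built from a WAVE protein (Wasf1 to Wasf3), an Abi protein, a Cyfip protein, Nckap1 and Brk1. The freed WAVE tail activates the Arp2/3 complex, which starts a new actin branch on the side of an existing filament. PAK kinases, also switched on by Rac and Cdc42, activate the LIM kinases, which phosphorylate and switch off the filament-severing protein cofilin, and the slingshot phosphatases reverse that step. In glioma cells this network builds the lamellipodia of migrating cells.

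The arrays carried RNA of cultured mouse cells of FVB-NJ background, named S100β-v-erbB/p53-/- TSC1, in which the viral oncogene v-erbB, an activated form of the EGF receptor, is expressed from the S100β promoter of glial cells on a p53-null background. The labels do not say what TSC1 stands for. All groups carry this genotype, were kept in DMEM F-12 medium with B27 and were treated for 16 h: DMSO in normoxia, DMSO in hypoxia, brefeldin A (BFA) in hypoxia and EHT-1864 (EHT) in hypoxia, with 3 arrays each and 12 in all. EHT-1864, an inhibitor of Rac family GTPases, was used at 1 µM. For BFA, which traps ARF GTPases with their exchange factors and disperses the Golgi, the treatment protocol gives 1 µM and the series title 0.1 µM. RNA was measured on Clarion S arrays. According to the design text the material came from 3 independent cultures. It does not say whether arrays with equal numbers share a culture, so p-values measure the spread between these arrays.

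As a check of cell identity, 7 of the 8 progenitor markers looked for (Olig1, Olig2, Sox2, Sox10, Cspg4, Nes and Fabp7) had a cluster, and all 7 were above the floor on every array. The floor was the 95th percentile of each array's negative control probes. Their mean log2 signal ran from 10.67 to 10.70 on the hypoxia DMSO arrays, from 8.18 to 8.22 with BFA and from 9.52 to 9.67 with EHT. Of these 7 markers, 6 were lower with BFA than with DMSO in hypoxia and all 7 were lower with EHT, and the part of this shift in the results below was not tested. None of the 9 microglial or 7 endothelial markers with a cluster passed the floor on any array, and 2 of 7 neuronal, 2 of 7 fibroblast and 3 of 6 astrocyte markers passed it on at least 1 array. The mean signal of the 6 astrocyte markers ran from 5.89 to 6.04 with DMSO in hypoxia, from 4.90 to 5.12 with BFA and from 5.50 to 5.57 with EHT: S100b, Slc1a3 and Slc1a2 were lower with BFA and the latter pair with EHT, while Gfap, Aqp4 and Aldh1l1 were above the floor on no array. The mean of the 7 fibroblast markers ran from 3.83 to 4.11, from 4.24 to 4.51 and from 4.38 to 4.60. Of these, 3 were called higher with BFA (Col1a1, by 0.74 ± 0.13, and Col1a2 and Dcn, which no array showed above the floor) and 2 with EHT (Dcn, and Acta2 with 1 array above it). Their part in the results was not tested either. In bulk RNA, fewer cells of a type and less RNA per cell cannot be told apart.

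The arrays themselves differed between groups. The floor averaged 5.609 in normoxia DMSO, 5.613 in hypoxia DMSO, 6.492 with BFA and 6.006 with EHT, and the SD of log2 signal over all clusters averaged 2.484, 2.512, 2.275 and 2.405. The BFA arrays therefore had the highest floor and the narrowest range of signal. The part of the floor and of the narrower range in the BFA and EHT results was not tested. Values after quantile normalization, which gives all arrays 1 distribution, are printed beside each call of the 38 genes that they end or add between groups in hypoxia. Of the 38 genes, 36 were above the floor on all 3 arrays in each DMSO group, 33 with BFA and 35 with EHT. The median SD over 3 arrays was 0.09 in normoxia DMSO, 0.08 in hypoxia DMSO, 0.14 with BFA and 0.12 with EHT.

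**Figure D1:**
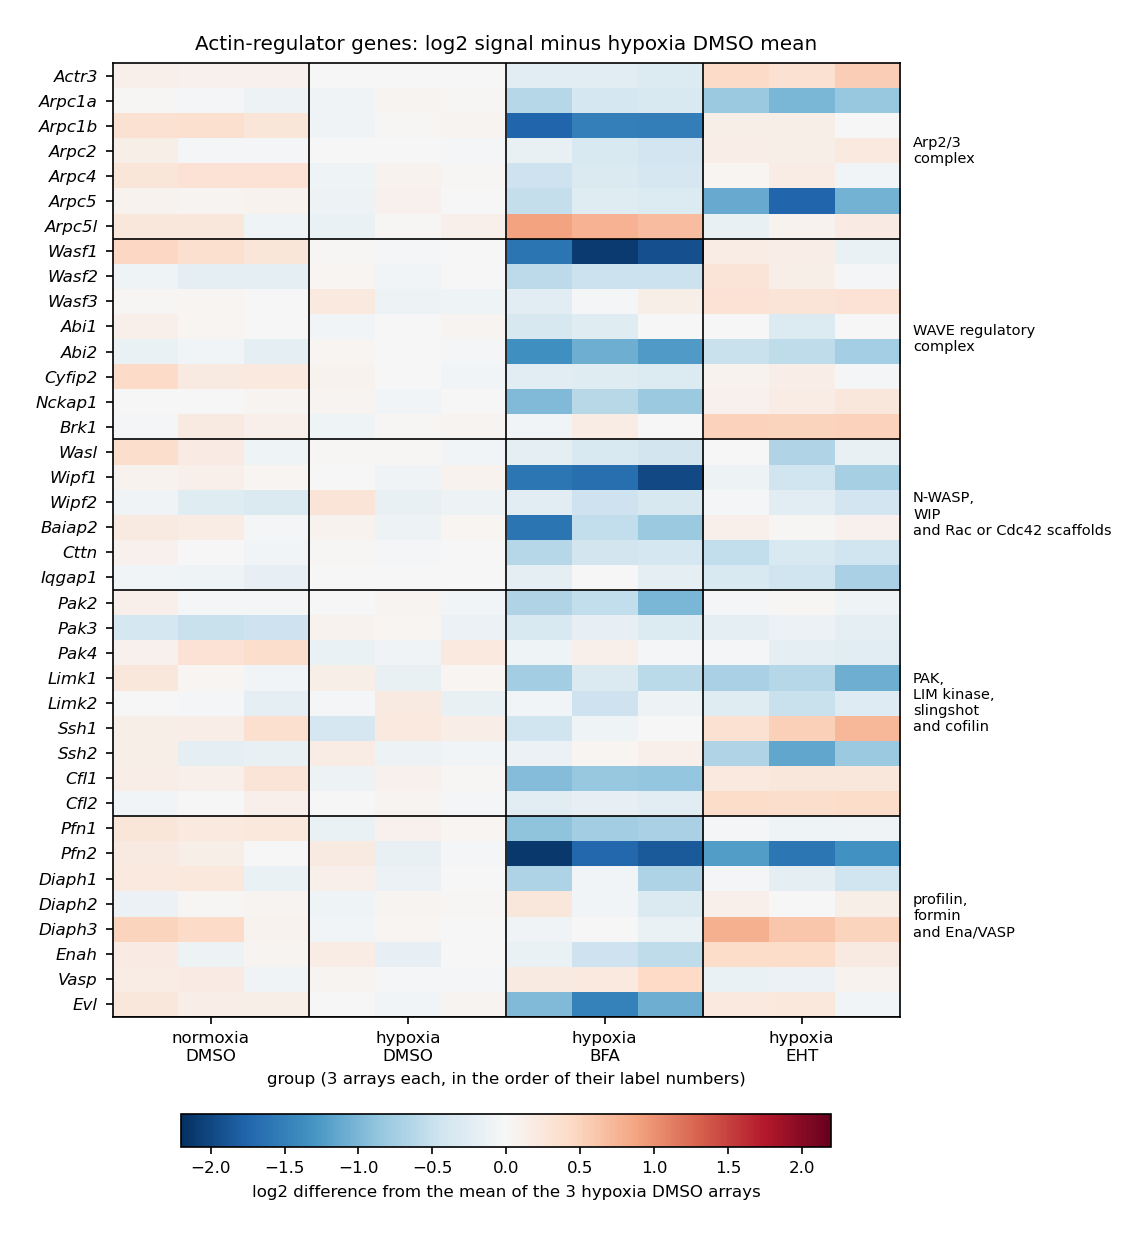
Log2 signal of the 38 measured genes (rows, grouped by role) on the 12 arrays (columns), each minus the gene's mean over the 3 hypoxia DMSO arrays; blue is lower and red is higher. The BFA columns are mostly blue (34 of 38 mean differences below 0), whereas the EHT columns hold 19 genes below and 19 above 0.

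The results turn on paralogues, genes for alternative versions of 1 subunit, which differed from each other within the Arp2/3 complex, the cofilins and the profilins. The promoters of 5 of them are shown for that reason, as the 250 bases ahead of the RefSeq start in GRCm38.p6, in windows that hold no annotated gene. They are Arpc1a (chr5:145083619-145083868, plus strand), Arpc1b (chr5:145114006-145114255, plus strand), Cfl1 (chr19:5490205-5490454, plus strand), Cfl2 (chr12:54862878-54863127, minus strand) and Pfn2 (chr3:57847758-57848007, minus strand). Capitals mark ACGTG, the core of the hypoxia response element, on either strand; CACGTG is a palindrome and holds it on both strands.
Arpc1a: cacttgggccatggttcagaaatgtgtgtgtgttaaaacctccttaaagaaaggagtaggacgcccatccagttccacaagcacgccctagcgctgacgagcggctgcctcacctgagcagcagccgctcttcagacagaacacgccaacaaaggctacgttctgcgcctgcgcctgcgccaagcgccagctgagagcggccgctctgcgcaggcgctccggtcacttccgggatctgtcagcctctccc
Arpc1b: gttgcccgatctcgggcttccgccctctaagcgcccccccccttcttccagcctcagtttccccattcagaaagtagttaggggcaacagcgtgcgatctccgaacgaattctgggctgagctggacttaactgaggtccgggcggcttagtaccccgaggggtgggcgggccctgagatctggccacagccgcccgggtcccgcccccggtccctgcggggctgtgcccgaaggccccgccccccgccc
Cfl1: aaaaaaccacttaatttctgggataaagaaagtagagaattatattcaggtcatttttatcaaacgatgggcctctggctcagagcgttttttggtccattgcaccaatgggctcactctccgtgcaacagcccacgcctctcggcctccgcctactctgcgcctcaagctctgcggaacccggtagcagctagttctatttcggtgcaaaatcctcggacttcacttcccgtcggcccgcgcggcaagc
Cfl2: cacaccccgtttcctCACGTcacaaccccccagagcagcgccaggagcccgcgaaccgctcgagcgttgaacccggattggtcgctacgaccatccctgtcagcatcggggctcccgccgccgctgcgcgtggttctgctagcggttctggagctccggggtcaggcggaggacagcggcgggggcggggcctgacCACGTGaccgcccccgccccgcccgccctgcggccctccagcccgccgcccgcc
Pfn2: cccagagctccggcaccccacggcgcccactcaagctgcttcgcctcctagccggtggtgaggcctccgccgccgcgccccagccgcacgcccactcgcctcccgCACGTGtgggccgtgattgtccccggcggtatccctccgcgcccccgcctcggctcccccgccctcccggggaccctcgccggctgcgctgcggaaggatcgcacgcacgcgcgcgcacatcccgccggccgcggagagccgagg
Arpc1a and Arpc1b lie on the same strand of chromosome 5, and neither window holds the core. The Cfl2 window holds it at 2 places and the Pfn2 window at 1, and the GC content of these windows was 74.4% and 78.0%, against 52.0% for Cfl1. Over the 32 member promoters in the RefSeq table, 8 held ACGTG (Arpc5, Cfl2, Diaph2, Limk1, Pak3, Pfn2, Ssh1 and Wipf2), against 16.6% of all 27025 promoter windows. GGAATG, the core bound by TEAD factors, was in 4 of 32 (Arpc2, Evl, Pfn1 and Wasf1), against 12.6% of all windows. The CArG box bound by serum response factor was in 1 of 32 (Arpc4), against 1.40%, and the palindromic cAMP response element TGACGTCA in 0 of 32, against 1.62%. All 4 motifs were searched on both strands, and a match describes the letters only.

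Hypoxia alone moved few of the actin regulators past the threshold. In the limma fit, 2.67% of all clusters passed an adjusted p of 0.05 between hypoxia DMSO and normoxia DMSO. Of the 38 genes, 1 was higher in hypoxia, against 2.11% of all clusters, and 0 of 38 were lower, against 0.563%. At an unadjusted p under 0.05 there were 1 higher and 6 lower, and the share of all clusters at that level was not computed. Limma with array weights called 3 of 38 lower, against 4.47% of all clusters, and with a trended, robust variance 4, against 2.05%. The median log2 difference of the 38 genes was -0.08, against -0.03 over all clusters. Of the 38 differences, 29 were below 0 and 9 above. All hypoxic arrays lay below all normoxic ones for 9 genes, as for 16.2% of all clusters. They lay above for 4 genes, as for 14.0% of all clusters. The gene that passed was Pak3, which encodes a Rac- and Cdc42-activated kinase of neural cells: its log2 signals were 7.72, 7.61 and 7.65 in normoxia and 8.18, 8.15 and 7.98 in hypoxia. All 3 hypoxic arrays were above all 3 normoxic arrays, and the difference was 0.44 ± 0.11 (SE of the limma fit, n = 3 arrays per group, as for every ± below), or 1.36-fold, with an adjusted p of 0.0498. This call was lost when hypoxia DMSO replicate 1 was left out (adjusted p = 0.190), in 9 other omissions of 1 array and after quantile normalization (0.0507). The next genes by p-value lay on the lower side and did not pass: Arpc1b at -0.32 ± 0.11, Arpc4 at -0.30 ± 0.11 and Wasf1 at -0.36 ± 0.14, with adjusted p-values of 0.169, 0.195 and 0.228.

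With BFA in hypoxia, members of every group of the machinery fell. Against DMSO in hypoxia, 19 of 38 genes were lower and 1 was higher, where 24.6% of all clusters were lower and 26.1% higher (50.7% in either direction). The median difference of the 38 genes was -0.36, against 0.11 over all clusters. Among the 10432 clusters above the floor in all arrays of at least 1 of these groups, however, 46.1% were lower and 16.3% higher. Their median was -0.30. Of the 36 members among them, 18 were lower and 1 higher, with a median of -0.36. The members' share of lower calls thus lay near that of other detected genes, and their share of higher calls lay below it. A cluster could enter this set through the group with the lower floor alone, here DMSO, so the set leans towards lower calls with BFA. The sets above the floor used below share this limit. After quantile normalization 11 of the 38 genes were lower and 4 higher, with a median of -0.10. Of all clusters, 19.5% were then lower and 23.3% higher, with a median of 0.05.

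**Figure D2:**
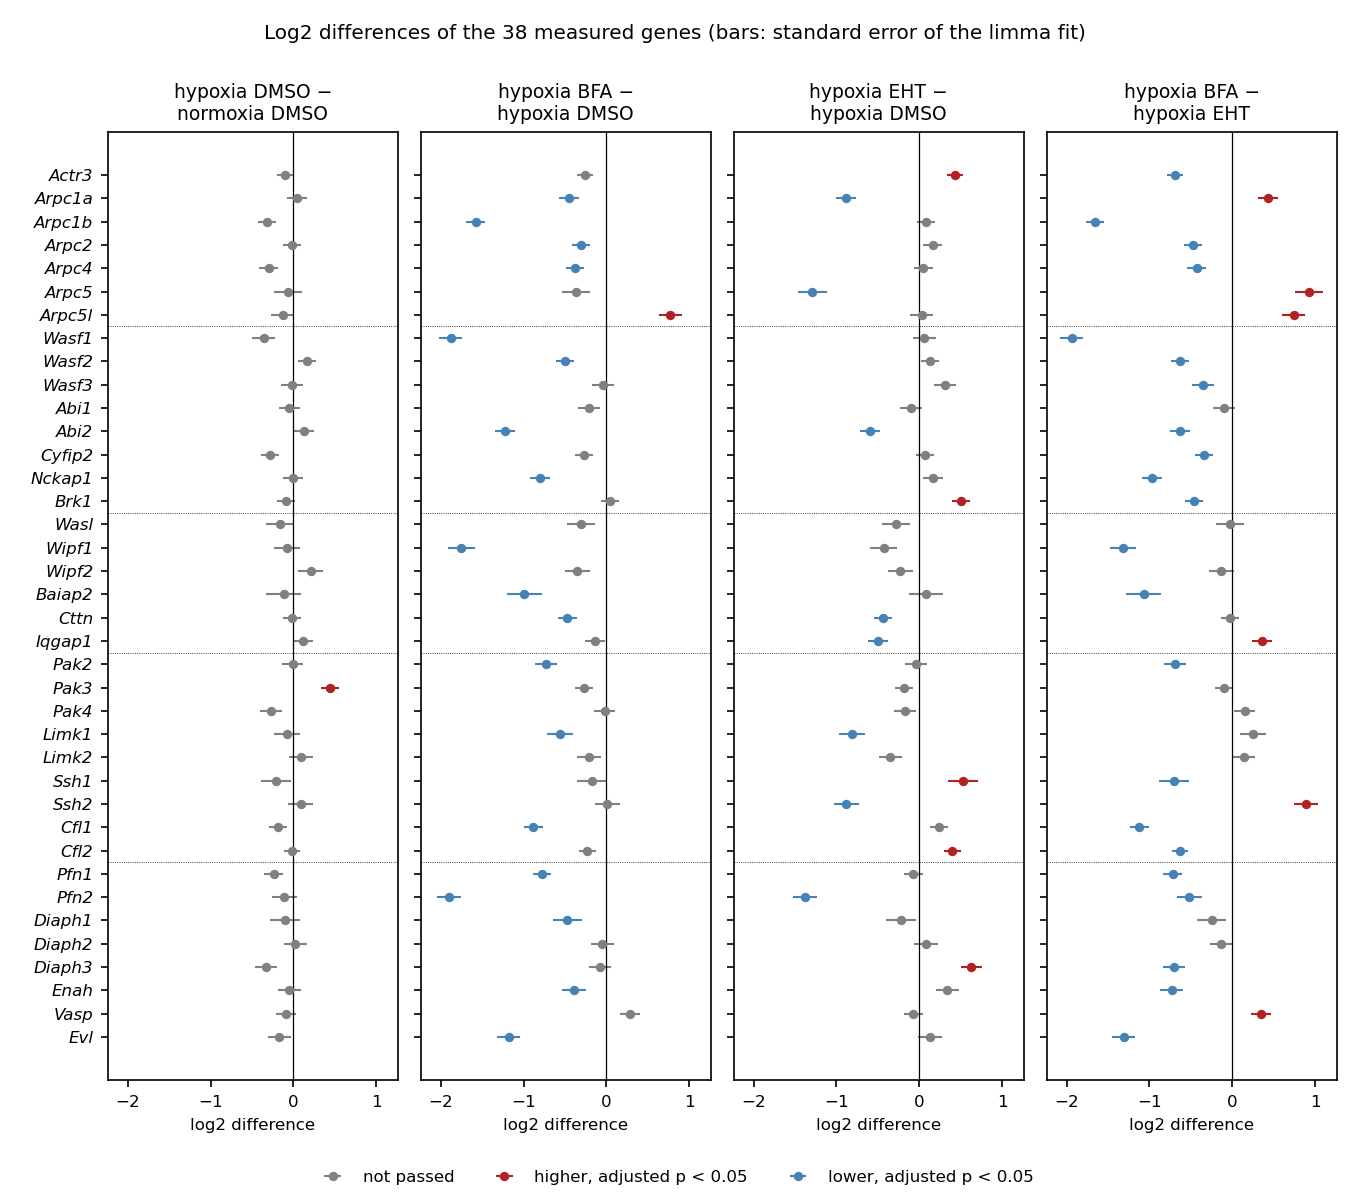
Log2 difference of each of the 38 genes in 4 comparisons (panels; x axis, log2 units), with the standard error of the limma fit (n = 3 arrays per group); dotted lines separate the groups by role. Most BFA points lie left of 0 and down to -1.90 (Pfn2), and the EHT points spread to either side between -1.38 (Pfn2) and 0.63 (Diaph3).

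In the Arp2/3 complex, 4 of 7 measured subunits were lower with BFA and 1 was higher. Arpc1b, which encodes an alternative version of the p40 subunit, had log2 signals of 10.89, 10.99 and 11.02 with DMSO and 9.23, 9.46 and 9.45 with BFA. The groups lay far apart, by -1.58 ± 0.11 or 3.0-fold (adjusted p = 2.12e-07). Its paralogue Arpc1a read 8.82, 8.96 and 8.92 with DMSO and 8.27, 8.51 and 8.57 with BFA, a smaller difference of -0.45 ± 0.12 (adjusted p = 0.00721). Arpc5l, an alternative version of the p16 subunit, was the only gene of the 38 called higher: it read 6.55, 6.73 and 6.81 with DMSO and 7.58, 7.46 and 7.37 with BFA, a difference of 0.77 ± 0.14 (1.71-fold, adjusted p = 0.000581). Its paralogue Arpc5 did not pass, at -0.37 ± 0.17 (adjusted p = 0.0854). Arpc2 and Arpc4, which hold the complex together and contact the mother filament, were lower by smaller amounts, -0.31 ± 0.11 and -0.38 ± 0.11, and the actin-related subunit Actr3 did not pass at -0.26 ± 0.10 (adjusted p = 0.0513). After quantile normalization Arpc1a, Arpc2 and Arpc4 stood at -0.18, -0.09 and -0.10 and no longer passed, while Arpc1b and Arpc5l did. Outside the complex, Vasp also passed as higher in 5 of the 21 alternatives run, and Brk1 and Ssh2 in 1, quantile normalization. The Arpc2 call was also lost without any 1 of the 3 hypoxia DMSO arrays or without BFA replicate 2 or 3, with adjusted p-values up to 0.112.

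In the WAVE complex, 4 of 8 measured genes were lower with BFA. Wasf1, the WAVE protein prominent in neural tissue, fell from 9.66, 9.60 and 9.63 to 8.02, 7.53 and 7.70. The BFA arrays were all far below the DMSO arrays, and the difference of -1.88 ± 0.14 (3.68-fold, adjusted p = 3.46e-07) was among the largest of the 38 genes. Of its paralogues, Wasf2, the widely expressed WAVE protein, was lower by a smaller amount, -0.50 ± 0.11, and Wasf3 was at -0.04 ± 0.13 (adjusted p = 0.812). After quantile normalization Wasf2 stood at -0.23 and did not pass. Abi2, an adaptor subunit, read 9.45, 9.41 and 9.38 with DMSO and 8.06, 8.34 and 8.16 with BFA, a difference of -1.22 ± 0.12 (2.34-fold, adjusted p = 3.32e-06), and its paralogue Abi1 did not pass (-0.21 ± 0.13, adjusted p = 0.194). Nckap1, a scaffold subunit of the complex, was also lower, by -0.80 ± 0.12 (1.74-fold). Cyfip2, whose protein carries Rac-binding sites of the complex, stood at -0.27 ± 0.11 (adjusted p = 0.0599), and the small subunit Brk1 at 0.04 ± 0.11. Neither passed, but after quantile normalization Brk1 stood at 0.31 and passed as higher (adjusted p = 0.0332).

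Of the N-WASP, WIP and scaffold genes, 3 of 6 were lower with BFA. Wipf1, which encodes the WASP-stabilising partner WIP, read 7.54, 7.45 and 7.60 with DMSO and 5.94, 5.87 and 5.55 with BFA. None of the BFA arrays was above the floor, so only a bound can be given: at least 2.06-fold lower (adjusted p = 1.51e-06). Baiap2, the membrane-bending Rac and Cdc42 effector IRSp53, fell from 7.55, 7.35 and 7.51 to 5.86, 6.92 and 6.66, by -0.99 ± 0.21 (adjusted p = 0.00174). The 3 BFA arrays differed more for this gene than for any other of the 38 (SD 0.55), and 2 of them were above the floor. Cttn, encoding cortactin, which stabilises Arp2/3 branches, was lower by -0.47 ± 0.11 and stood at -0.21 after quantile normalization, where it did not pass. Wasl, which encodes N-WASP itself, its partner Wipf2 and the scaffold Iqgap1 did not pass, at -0.31 ± 0.17, -0.35 ± 0.15 and -0.14 ± 0.12.

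In the PAK, LIM kinase and cofilin branch, 3 of 9 genes were lower with BFA. Cfl1, the non-muscle cofilin, had log2 signals of 11.42, 11.62 and 11.56 with DMSO and 10.58, 10.70 and 10.68 with BFA. The groups did not overlap, and the difference was -0.88 ± 0.11 (1.84-fold, adjusted p = 2.73e-05). Cfl2, the muscle-type paralogue, did not pass (-0.23 ± 0.10, adjusted p = 0.0816). Pak2, the widely expressed group I kinase, fell from 7.72, 7.79 and 7.67 to 7.07, 7.19 and 6.72, by -0.73 ± 0.13 (1.66-fold), and by -0.40 after quantile normalization, where it still passed. Limk1, the kinase that phosphorylates cofilin, was lower by -0.56 ± 0.16 (adjusted p = 0.0119), and at -0.26 after quantile normalization it did not pass. Pak3, Pak4, Limk2 and the phosphatase gene Ssh2 did not pass, with values from -0.27 to 0.01, and Ssh1 was below the floor on all arrays of both groups. After quantile normalization Ssh2 stood at 0.37 and passed as higher (adjusted p = 0.0449).

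Among profilins, formins and Ena/VASP proteins, 5 of 8 genes were lower with BFA. Pfn2, the profilin of neural cells, differed by about as much as Wasf1: it read 8.74, 8.37 and 8.51 with DMSO and 6.41, 6.81 and 6.70 with BFA, or -1.90 ± 0.15 (3.73-fold, adjusted p = 5.02e-07). Only 2 of its 3 BFA arrays were above the floor. Pfn1, the general profilin that hands actin monomers to growing ends, was lower by a smaller amount, from 11.52, 11.75 and 11.71 to 10.78, 10.90 and 10.95 (-0.78 ± 0.11, adjusted p = 7.28e-05). Evl, an Ena/VASP elongation factor, fell from 8.28, 8.22 and 8.33 to 7.31, 6.79 and 7.20, by -1.18 ± 0.14 (2.27-fold, adjusted p = 2.40e-05). Its relatives differed: Enah was at -0.39 ± 0.14, with overlapping arrays, and Vasp at 0.28 ± 0.12 (adjusted p = 0.0729), which became 0.62 and passed after quantile normalization (adjusted p = 0.00103). The Enah call (adjusted p = 0.0381) was lost after quantile normalization (-0.10), or without hypoxia DMSO replicate 1 or 3, BFA replicate 2 or 3 or normoxia DMSO replicate 3, with adjusted p-values up to 0.138. The formin gene Diaph1 was called lower (-0.47 ± 0.18, adjusted p = 0.0460), but its arrays overlapped, none of the BFA arrays was above the floor, and the call was lost in 8 omissions of 1 array, with p-values up to 0.151 without BFA replicate 3, and after quantile normalization (-0.42, adjusted p = 0.115). Diaph2 and Diaph3 stood at -0.05 ± 0.14 and -0.08 ± 0.13 and did not pass.

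With the Rac inhibitor EHT in hypoxia, the genes moved in both directions and fewer of them passed. Against DMSO in hypoxia, 8 of 38 genes were lower and 5 were higher, where 17.4% of all clusters were lower and 13% higher (30.5% in either direction), so both shares lay near those of all clusters. Among the 10501 clusters above the floor in all arrays of at least 1 of these groups, 32.3% were lower and 14.2% higher, and of the 36 members among them 8 were lower and 4 higher. The members' share of lower calls thus lay below that of other detected genes, and their share of higher calls near it. The median difference of the 38 genes was 0.00, against 0.06 over all clusters and -0.16 over those above the floor. This comparison shares its 3 DMSO arrays with the BFA comparison. Of the 13 calls, 12 held in all 21 alternatives run, and the exception was Ssh1. Fewer calls held in every alternative that kept the gene in the other comparisons. They were 12 of 20 for BFA against DMSO, 20 of 28 for BFA against EHT and 0 of 1 for hypoxia.

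Within the Arp2/3 complex EHT lowered 2 of 7 subunit genes and raised 1. Arpc5, the main p16 subunit, read 9.18, 9.39 and 9.31 with DMSO and 8.18, 7.55 and 8.26 with EHT. The lowest EHT array was replicate 2, all 3 were below the DMSO arrays, and the difference was -1.29 ± 0.17 (2.45-fold, adjusted p = 0.000115). Its paralogue Arpc5l was at 0.03 ± 0.14. Arpc1a fell to 8.09, 7.89 and 8.07, by -0.89 ± 0.12 (1.85-fold, adjusted p = 0.000160), while Arpc1b stood at 0.08 ± 0.11 (adjusted p = 0.637). Actr3, the actin-related core subunit, rose from 9.70, 9.72 and 9.70 to 10.13, 10.04 and 10.24, by 0.43 ± 0.10 (1.35-fold, adjusted p = 0.00742).

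**Figure D3:**
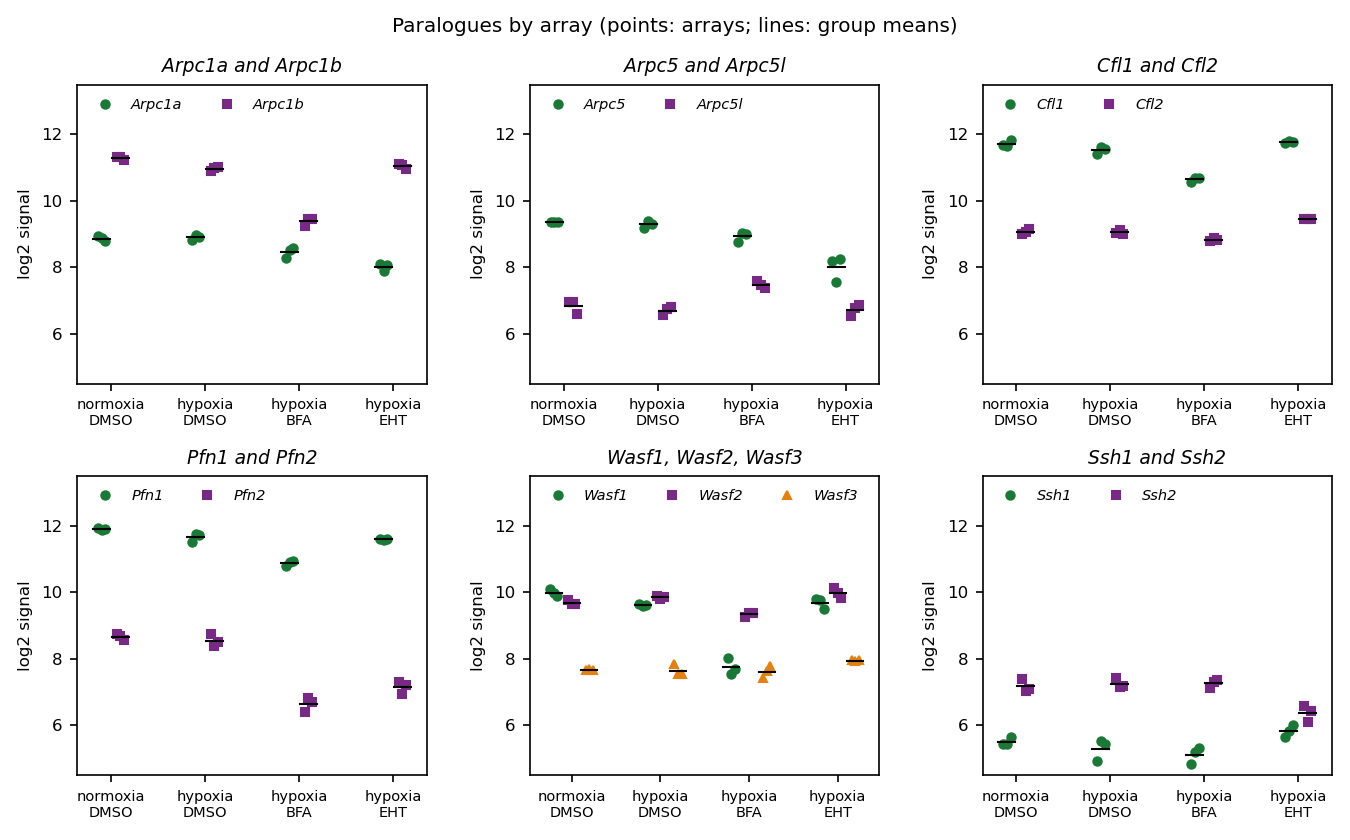
Log2 signal (y axis) of 6 sets of paralogues on the 3 arrays of each group (x axis); points are arrays and lines group means, and levels of different genes are not comparable on an array. Arpc1b, Pfn1, Cfl1 and Wasf1 are lower with BFA while their EHT points lie near the DMSO points, Arpc5 and Ssh2 are lower with EHT, and Pfn2 is lower with either compound.

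Of the 8 WAVE complex genes, 1 was lower and 1 higher with EHT. Abi2 was lower, at 8.92, 8.86 and 8.66 (-0.60 ± 0.12, adjusted p = 0.00237), and Brk1 rose from 8.49, 8.62 and 8.65 to 9.09, 9.08 and 9.09 (0.50 ± 0.11, 1.41-fold, adjusted p = 0.00532). The EHT arrays of Brk1 agreed closely and lay above every DMSO array. The other 6 genes did not pass, including Wasf1 (0.06 ± 0.14), Wasf2 (0.13 ± 0.11), Wasf3 (0.31 ± 0.13) and Nckap1 (0.17 ± 0.12). After quantile normalization Wasf3 stood at 0.49 and passed (adjusted p = 0.00892). Of the scaffold genes, Cttn (-0.44 ± 0.11, adjusted p = 0.0121) and Iqgap1 (-0.50 ± 0.12, adjusted p = 0.00810) were lower, and Wipf1 stood just outside the threshold at -0.43 ± 0.16 (adjusted p = 0.0522).

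Genes of both enzyme families that act on cofilin fell with EHT. Limk1, a kinase for cofilin, fell from 8.64, 8.34 and 8.55 to 7.79, 7.88 and 7.43, by -0.81 ± 0.16 (1.75-fold, adjusted p = 0.00232). Ssh2, a phosphatase for cofilin, fell from 7.42, 7.14 and 7.19 to 6.58, 6.10 and 6.43, by -0.88 ± 0.15 (1.85-fold, adjusted p = 0.000886), with 2 of 3 EHT arrays above the floor. No array of one group overlapped the other for either gene. Ssh1, its paralogue, was called higher (adjusted p = 0.0382). Only 1 EHT array and no DMSO array was above the floor, so no fold is given. That call was lost without hypoxia DMSO replicate 1 (difference 0.35, adjusted p = 0.165) or replicate 3, EHT replicate 2 or 3, or normoxia DMSO replicate 2. Cfl2 rose from 9.04, 9.11 and 9.01 to 9.46, 9.44 and 9.46, by 0.40 ± 0.10 (1.32-fold, adjusted p = 0.0104), and Cfl1 did not pass at 0.24 ± 0.11 (adjusted p = 0.115). The 3 PAK genes lay between -0.18 and -0.04 and did not pass. Further down the pathway, Pfn2 fell to 7.31, 6.95 and 7.21 (-1.38 ± 0.15, 2.61-fold, adjusted p = 2.80e-05), and the formin gene Diaph3 rose from 7.31, 7.41 and 7.37 to 8.14, 7.98 and 7.86 (0.63 ± 0.13, 1.54-fold, adjusted p = 0.00324). Pfn1 was at -0.07 ± 0.11 and Evl at 0.13 ± 0.14, and Enah did not pass here but did after quantile normalization (0.47, adjusted p = 0.0375) and in 3 other alternatives.

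Set against each other, the compounds differed in 28 of the 38 genes. In the direct comparison of BFA with EHT, 22 genes were lower with BFA, where 19.6% of all clusters were lower, and 6 were higher, where 16.9% were (36.5% in either direction). Among clusters above the floor, 39.3% were lower and 20.3% higher. The median difference was -0.44, against 0.06 over all clusters and -0.19 over clusters above the floor. After quantile normalization it was -0.27, with 18 genes lower and 6 higher. Of all clusters, 17.9% were then lower and 18.0% higher, with a median of 0.02.

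The WAVE complex differed in 7 of its 8 genes, all lower with BFA, with a median of -0.55. The largest of these was Wasf1 (-1.94 ± 0.14, 3.83-fold, adjusted p = 3.82e-07), followed by Nckap1 (-0.97 ± 0.12), Wasf2 (-0.63 ± 0.11) and Abi2 (-0.63 ± 0.12). Brk1 (-0.46 ± 0.11), which rose with EHT against DMSO, also differed. The calls for Wasf3 (-0.35 ± 0.13, adjusted p = 0.0484) and Cyfip2 (-0.34 ± 0.11, adjusted p = 0.0310) were lost after quantile normalization, at -0.18 and -0.12. They were also lost in single omissions: Wasf3 in 10 of 12, up to an adjusted p of 0.141 without BFA replicate 1, and Cyfip2 without BFA replicate 2 or 3 or EHT replicate 1 or 2, up to 0.0844. Abi1 did not pass, at -0.10 ± 0.13.

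The Arp2/3 complex split, with 4 subunit genes lower and 3 higher with BFA than with EHT. Arpc1b (-1.66 ± 0.11, 3.17-fold) and Actr3 (-0.69 ± 0.10) were lower, as were Arpc2 and Arpc4 (-0.47 ± 0.11 and -0.43 ± 0.11), which did not pass after quantile normalization (-0.25 and -0.23). Arpc5 (0.93 ± 0.17, 1.90-fold), Arpc5l (0.74 ± 0.14, 1.67-fold) and Arpc1a (0.43 ± 0.12) were higher. The paralogues of the p40 subunit thus differed between the compounds in opposite directions, on non-overlapping arrays. Of the p16 genes, Arpc5l had risen with BFA and Arpc5 had fallen with EHT, each relative to the shared DMSO arrays. The Arpc1a call (adjusted p = 0.0124) and the Arpc4 call (0.00816) were lost in a fit of the 6 arrays alone, at 0.0718 and 0.0615.

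In the cofilin branch, Cfl1 (-1.12 ± 0.11, 2.18-fold, adjusted p = 4.16e-06), Cfl2 (-0.63 ± 0.10) and Pak2 (-0.69 ± 0.13) were lower with BFA than with EHT, and Ssh2 was higher (0.89 ± 0.15). Ssh1 was called lower too, but only 1 of the 6 arrays was above the floor. Limk1 did not pass, at 0.25 ± 0.16 (adjusted p = 0.246), and neither did Cttn, at -0.03 ± 0.11 (adjusted p = 0.867). Among the elongation factors, Evl (-1.31 ± 0.14), Enah (-0.73 ± 0.14), Pfn1 (-0.72 ± 0.11) and Diaph3 (-0.70 ± 0.13) were lower. Pfn2 was lower by a further -0.52 ± 0.15 (adjusted p = 0.0152), a call that was lost without BFA replicate 1 (-0.40, adjusted p = 0.0545) or EHT replicate 1 (-0.44, 0.0653). Vasp was higher at 0.35 ± 0.12 (adjusted p = 0.0410), but 8 omissions of 1 array ended that call, with p-values up to 0.139 without BFA replicate 3. Iqgap1, higher at 0.36 ± 0.12 (adjusted p = 0.0342), lost its call without EHT replicate 3 (0.26, adjusted p = 0.146) or BFA replicate 2 (0.29, 0.0965).

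Read over the tests of each compound against DMSO and of one compound against the other, 13 genes were lower with BFA than with either DMSO or EHT, without passing for EHT against DMSO: Arpc1b, Arpc2, Arpc4, Wasf1, Wasf2, Nckap1, Wipf1, Baiap2, Pak2, Cfl1, Pfn1, Enah and Evl. Of these, Arpc2, Arpc4, Wasf2 and Enah did not pass against DMSO after quantile normalization. A further 5 were lower with either compound than with DMSO, namely Abi2, Pfn2, Cttn, Limk1 and Arpc1a. In this set, Cttn, Limk1 and Arpc1a did not pass for BFA against DMSO after quantile normalization. Another 5 were higher with EHT than with DMSO or BFA (Actr3, Brk1, Cfl2, Diaph3 and Ssh1), and 3 were lower with EHT than with either (Arpc5, Iqgap1 and Ssh2). Abi1, Diaph2, Limk2, Pak4, Wasl and Wipf2 passed in none of the 4 comparisons. The share of all clusters with each of these patterns was not computed, so these counts have no background beside them.

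Against normoxia, the hypoxic BFA arrays were lower in 24 of 38 genes and higher in 1, with 24% and 23% of all clusters (47% in either direction). The hypoxic EHT arrays were lower in 10 and higher in 3, with 14.3% and 8.1% of all clusters (22.4% in either direction). Among clusters above the floor, 45.6% were lower and 18.8% higher with BFA, and 27.5% and 12.1% with EHT, so the EHT counts lay near the background. After quantile normalization the member counts became 13 and 4 with BFA and 9 and 7 with EHT. Of all clusters, 19.9% were then lower and 22.5% higher with BFA, and 11.3% and 9.96% with EHT. The EHT counts rested on single arrays: the higher count became 0 without normoxia DMSO replicate 1 and 1 without normoxia DMSO replicate 2 or 3 or EHT replicate 3, and the lower count became 6 without normoxia DMSO replicate 2 or EHT replicate 3. The lower count with BFA moved as well, from 24 to 17 without normoxia DMSO replicate 1 and to 18 without BFA replicate 3. Of all clusters, 20.9% and 22.8% were then lower with BFA. These comparisons use the same compound arrays as those above.

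**Figure D4:**
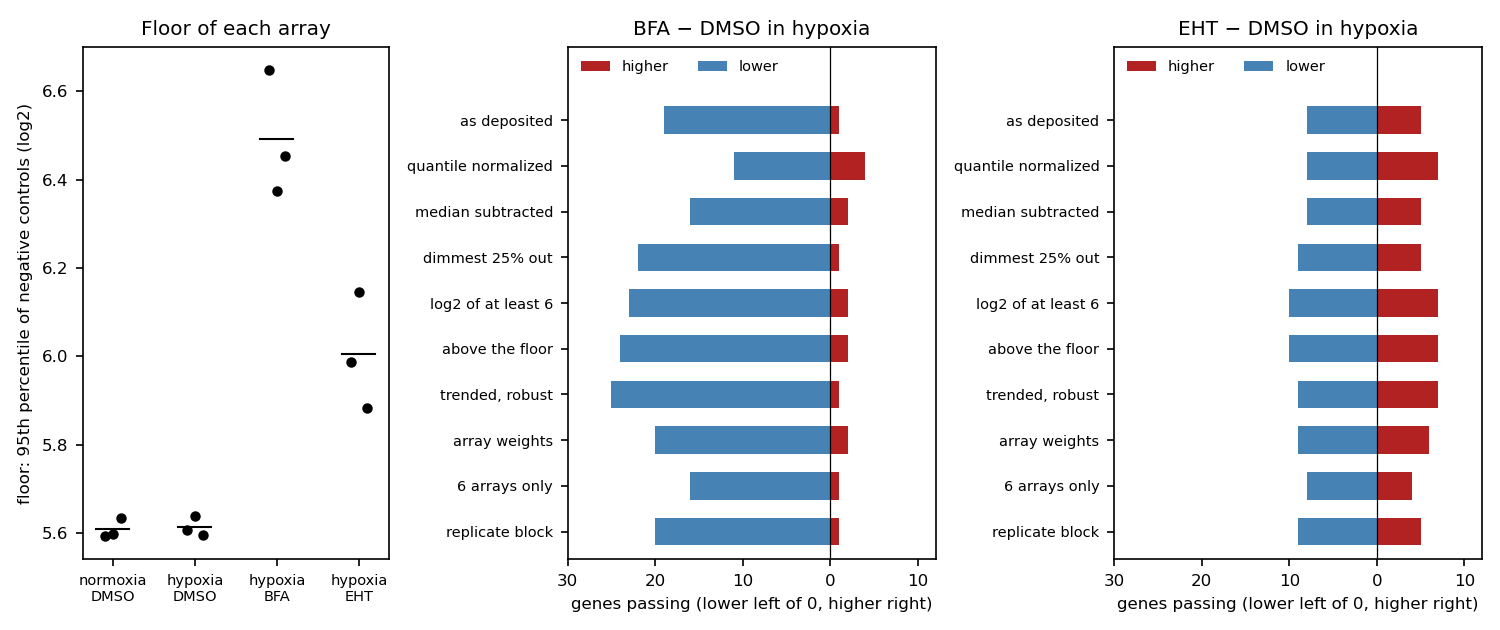
Left, the floor of each array (points; lines are means; log2 units), which lies near 5.61 in the DMSO groups, between 6.374 and 6.648 with BFA and between 5.883 and 6.146 with EHT. Middle and right, the number of the 38 genes lower (left of 0, blue) or higher (right of 0, red) than DMSO in hypoxia under 10 settings: with BFA the lower count runs from 11 after quantile normalization to 25, and with EHT from 8 to 10.

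The GTPases and regulators upstream were taken from lists by function. The medians of 4 lists with BFA were -0.67 for Rac and Cdc42 exchange factors, -0.92 for GAPs and GDIs, -0.41 for capping, severing and monomer-binding factors and -0.18 for other nucleation promoting factors, against 0.11 over all clusters. With EHT they were -0.35, -0.22, 0.00 and 0.11, against 0.06. Over only the genes above the floor in all arrays of at least 1 group (21 of 31, 12 of 16, 20 of 26 and 17 of 32) the medians were -0.93, -1.14, -0.72 and -0.37 with BFA, against -0.30 of all such clusters, and -0.46, -0.42, -0.24 and 0.02 with EHT, against -0.16. Genes could enter through the DMSO arrays alone, so these medians, like those of all such clusters, lean towards lower values. Rac1, which drives the WAVE complex, was lower with BFA (-0.47 ± 0.11, adjusted p = 0.00302) and at 0.02 ± 0.11 with EHT, the compound directed at its protein. Cdc42 was lower with BFA too (-0.54 ± 0.12). Rhoa was called lower (-0.29 ± 0.11, adjusted p = 0.0435), but stood at -0.02 after quantile normalization and lost its call in 10 omissions of 1 array, with p-values up to 0.113 without hypoxia DMSO replicate 2. The gene for ARF1, a GTPase whose activation BFA blocks, did not pass, at 0.19 ± 0.11 with BFA and -0.07 ± 0.11 with EHT. Rhoj, a Cdc42-like GTPase, was lower with either compound, by -2.53 ± 0.11 with BFA and -1.93 ± 0.11 with EHT. The atypical Rnd GTPases, which lack normal GTP hydrolysis, diverged: Rnd2 was lower with BFA (-2.99 ± 0.16, 2 of 3 BFA arrays above the floor), Rnd3 was higher with BFA (0.73 ± 0.12) and EHT (1.30 ± 0.12), and Rnd1 was higher with BFA (2.38 ± 0.18). Rnd1 was also at least 1.36-fold higher in hypoxia DMSO than in normoxia (adjusted p = 0.0134), a call lost without hypoxia DMSO replicate 1 or 2 or normoxia DMSO replicate 1 or 3, up to 0.0758.

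The counts of these lists stand beside 24.6% of all clusters lower and 26.1% higher with BFA, and 17.4% and 13% with EHT; above the floor the shares were 46.1% and 16.3%, and 32.3% and 14.2%. Exchange factors, which load Rac and Cdc42 with GTP, were lower in 20 of 31 genes and higher in 2 with BFA, and lower in 11 with EHT. Both higher genes, Vav1 and Dock2, and 1 of the 20 lower with BFA were above the floor on no array of either group. Of the 21 genes above it, 18 were lower with BFA and 11 with EHT. Genes such as Dock10 and Arhgef4 entered through the DMSO arrays alone, so counts above the floor in these lists lean towards lower genes. Prex1, a PIP3-activated Rac exchange factor, was at least 2.02-fold lower with BFA and lower by -0.90 ± 0.14 with EHT, and Dock10 was at least 2.03-fold and 2.84-fold lower. Arhgef7, the PAK-interacting factor β-PIX, was lower by -1.26 ± 0.11 and -0.56 ± 0.11. Elmo1, the partner of DOCK exchange factors, was lower with BFA (-1.22 ± 0.13) and stood at 0.24 ± 0.13 with EHT, and it differed between the compounds by -1.46 ± 0.13. Arhgef4 rose in hypoxia (1.15 ± 0.12, adjusted p = 0.000120), and with BFA and EHT it was at least 1.38-fold and 1.93-fold lower than with DMSO. The GTPase-activating and GDI genes were lower in 12 of 16 and higher in 3 with BFA and lower in 6 and higher in 1 with EHT. Of the 12 above the floor, 11 were lower and 1 higher with BFA, and 6 and 0 with EHT. Arhgap25 (called higher with BFA and EHT), Arhgdib (with BFA) and 1 gene called lower with BFA were above it on no array compared. Among them Chn2 was at least 1.89-fold lower with BFA, and Racgap1, a cytokinesis GAP, was lower by -0.93 ± 0.14.

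Downstream, 16 of 26 capping, severing and monomer-binding genes were lower with BFA, and 7 were lower and 2 higher with EHT. Of the 20 above the floor, 15 and 7 were lower, and 1 of the 16 lower with BFA was above it on no array compared. Gsn, encoding the severing protein gelsolin, was lower by -2.58 ± 0.15 with BFA and -0.73 ± 0.15 with EHT. Tmsb4x, which encodes the actin monomer-sequestering thymosin β4, was lower with BFA (-1.85 ± 0.14) and higher with EHT (0.47 ± 0.14), with the EHT call (adjusted p = 0.0261) lost after quantile normalization or in 5 omissions of 1 array, up to 0.0733 without hypoxia DMSO replicate 1. Coro1c, a coronin of Arp2/3 branches, was lower with BFA (-1.59 ± 0.11) and also lower than with EHT (-1.81 ± 0.11). The 32 other nucleation promoting factors, formins and adaptors had 10 genes lower and 9 higher with BFA, and 8 lower and 5 higher with EHT. Of the 17 above the floor, 8 were lower and 3 higher with BFA, and 5 and 2 with EHT. Above it on no array compared were 2 of the lower and 5 of the higher genes with BFA, and 3 and 2 with EHT. Cobl, an actin nucleator of neural cells, was lower with BFA (-1.41 ± 0.11), and Washc1, a subunit of the endosomal WASH complex, was higher with EHT (0.88 ± 0.12) and stood at 0.37 ± 0.12 with BFA (adjusted p = 0.0248). The Washc1 call with BFA was lost without BFA replicate 3 (adjusted p = 0.106) or hypoxia DMSO replicate 1 (0.0803) or 2 (0.0615). It was also lost in a fit of the 6 arrays alone (0.0818).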

How the data were processed

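RNA of the 12 samples was labelled with biotin and hybridised to Clarion S arrays. The authors deposited log2 values summarised by RMA in Affymetrix Expression Console, per the submitters' processing notes; versions and genome build are not given in the sources used here. The number of arrays limits the precision. Of the deposited rows, 6640 controls were left out and 22206 clusters kept, of which 19572 had 1 symbol. Group means were fitted over all 12 arrays with limma 3.58.1 (lmFit and eBayes) in R 4.3.3, with Benjamini-Hochberg adjustment over all clusters and a threshold of 0.05; 8 residual degrees of freedom were joined by 4.87 prior ones. The fit was tested on simulated data. Where a group had no array above the floor for a gene, the fold is an "at least" bound against that floor. With both groups below it no fold is given, nor for Ssh1, where most arrays of the higher group were below it too. Genes outside the 42 were named as the 3 smallest adjusted p-values of each function list in each of 4 comparisons, among those above the floor in 1 group, plus Rac1, Cdc42, Rhoa and Arf1. The members and lists were chosen with earlier results of these data known. The counts and median of 1 function list are not reported here. Promoters come from a RefSeq table (GRCm38.p6), without the 50 bases after the start. Alternatives were quantile normalization, median subtraction, 3 filters on dim clusters (1 chosen after seeing the data), another variance model, array weights, fits of 6 arrays, a replicate block and each array left out. Array numbers were checked as pairs by correlating deviations from group means.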

Additional observations from a re-analysis of the deposited data

How the results depend on the processing

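No gene call changed sign under any of the 21 alternatives. Over members and the other named genes, 6367 values kept their side of the threshold, 200 lost it and 133 gained it. After quantile normalization the genes higher and lower became 0 and 0 for hypoxia against normoxia, 4 and 11 for BFA and 7 and 8 for EHT against DMSO, 6 and 18 for BFA against EHT, 4 and 13 for BFA and 7 and 9 for EHT against normoxia, with medians of -0.10, -0.10, 0.12, -0.27, -0.17 and -0.02. With each array's median subtracted, which moved the median of all clusters with BFA from 0.11 to 0.19, hypoxia raised 0 genes, BFA raised 2 with a median of -0.29, and EHT had a median of 0.05. Of all clusters, 1.86% were then higher in hypoxia and 31.6% with BFA. The log2 minimum of 6 and the floor filter, chosen after seeing the data, gave 1 gene lower in hypoxia, 2 higher with BFA and 6 higher with EHT against normoxia, and the floor filter a median of -0.04 for EHT. Fewer clusters enter the adjustment there. With the 2 filters, 4.59% and 4.16% of the clusters kept were lower in hypoxia, and 20.8% and 19.6% higher with BFA. With EHT against normoxia, 17.6% and 16.5% were higher. The trended, robust variance gave 4 genes lower in hypoxia, against 2.05% of all clusters. Array weights gave 3 (4.47% of all clusters), with 2 higher for BFA against DMSO (24.5%) and 5 for EHT against normoxia (11.4%). Fits of 6 arrays gave 3 genes higher with BFA than EHT (11.9% of all clusters) and ended 7 calls there. The cause of these shifts was not tested. Leaving out 1 array gave 0 to 1 genes higher for hypoxia, 0 to 3 higher and 6 to 11 lower for EHT against normoxia, 1 and 16 to 20 for BFA and 4 to 6 and 8 to 9 for EHT against DMSO, and 5 to 6 and 19 to 22 for BFA against EHT; medians ran from -0.04 to 0.01 for EHT against DMSO and from -0.23 to -0.12 for EHT against normoxia. Arrays with equal numbers were no more alike than others: same-number correlations ran from -0.180 to 0.170, and the others from -0.158 to 0.169. With 3 arrays per group this cannot tell whether equal numbers share a culture. With the replicate block, hypoxia raised 0 genes, as Pak3 had an adjusted p of 0.0930, BFA gave 1 higher and 20 lower, EHT 5 and 9, and BFA against EHT 5 and 21, without Vasp and Wasf3. Of all clusters, 1.7% were then higher in hypoxia. The shares higher and lower were 25.2% and 24.1% with BFA, 12.1% and 16.5% with EHT, and 16.3% and 18.9% for BFA against EHT. Averaging a gene's clusters gives the same values, since each had 1. Signals near the floor limit Ssh1 and Diaph1 in all groups, and Wipf1, Pfn2 and Baiap2 with BFA.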
